A study of Mus musculus with 15 samples.

Results

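The 10 genes described here carry iron through the hepatocyte: the hepcidin genes Hamp and Hamp2, the iron-sensing partners Hjv and Tfr2, the uptake genes Tfrc, Trf and Slc39a14, the exporter Slc40a1 and the ferritin chains Fth1 and Ftl1. They were chosen by symbol, for their roles and not for a measured value, from the 55984 gene symbols of the count table. The choice was made with earlier results of these data known. All 10 had at least 1 count, and 9 passed the filter on low counts and were tested among 17488 genes. Hamp2 did not pass it.

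The cells were hepatocytes from the livers of WT adult male C57BL/6JJcl mice, stained with the DNA dye Hoechst and separated by flow cytometry, and no population received a treatment. The 2n-whole population held diploid cells and the 4n-whole population all tetraploid cells. The study split the tetraploid cells by the peak height of the Hoechst signal into 4n-top, which is enriched for mononucleated cells, and 4n-bottom, which is enriched for binucleated cells, so neither is a pure population. The question was whether ploidy, or the packaging of the tetraploid genome into a single nucleus or a pair of nuclei, goes along with a different level of these transcripts.

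Total RNA was sequenced as 15 libraries of 4 mice: 4 each of 2n-whole, 4n-whole and 4n-bottom, and 3 of 4n-top, which lacks mouse 1. Total counts per library ran from 22049498 to 42096421, and 3 counts, taken as the floor of detection, equal 0.0693 to 0.120 CPM, which is the count scaled to a common library total with TMM factors. That floor covers counting error only. In each library 74.2% to 81.4% of the counts from 1 to 10 were even numbers, and how mates of a read pair were counted is not given in the sources used here. The 4n-whole libraries of mice 2 and 4 had the highest TMM scaling factors of the 15 libraries, 1.13 and 1.11. Their totals were 22049498, the lowest of all, and 28612634. The latter was not set apart by its total, since the 4n-top libraries of mice 3 and 4 held 25588972 and 26950875. Hepatocyte markers such as Alb and Apoa1 were high in every library, with a summed level of 82871 to 114033 CPM over 7 genes. Bulk values cannot tell fewer cells of a type from less RNA per cell.

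Hepcidin, the peptide encoded by Hamp, is secreted by hepatocytes and makes ferroportin, the iron exporter encoded by Slc40a1, leave the cell surface, so that less iron enters plasma. Its transcription follows iron through BMP-SMAD signalling, in which HJV is the co-receptor and TFR2 senses iron-loaded transferrin, and follows inflammation through IL-6 and STAT3. Inside cells the iron regulatory proteins bind a hairpin called the iron-responsive element: when iron is scarce they block translation of messages that carry it in the 5′ UTR and protect the transferrin receptor message, which carries several in the 3′ UTR.

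The hairpins are shown because they divide these genes by the step at which iron acts on them. A search of the transcribed strand for the loop CAGTGN, closed by 5 paired bases on each side with an unpaired C before the upper arm, found 1 in the 5′ UTR of Fth1, Ftl1 and Slc40a1 and 4 in the 3′ UTR of Tfrc. Among all transcripts with a UTR, 0.116% of 20680 5′ UTRs and 0.599% of 20699 3′ UTRs held a match. Each is given 5′ to 3′ on its gene's strand in GRCm39, with the loop in capitals.
Fth1, chr19:9960096-9960124, plus strand: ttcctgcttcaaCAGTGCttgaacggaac
Ftl1, chr7:45109203-45109231, minus strand: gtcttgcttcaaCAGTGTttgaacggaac
Slc40a1, chr1:45964625-45964653, minus strand: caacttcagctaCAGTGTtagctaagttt
Tfrc element 1, chr16:32450037-32450065, plus strand: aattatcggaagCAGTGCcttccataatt
Tfrc element 2, chr16:32450416-32450444, plus strand: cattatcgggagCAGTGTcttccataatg
Tfrc element 3, chr16:32450481-32450509, plus strand: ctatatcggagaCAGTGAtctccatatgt
Tfrc element 4, chr16:32450528-32450556, plus strand: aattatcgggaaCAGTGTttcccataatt

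The hepcidin promoters are shown because the pair is close in its upstream and coding sequence, and only Hamp rose above the floor of 3 counts. Hamp (chr7:30641766-30643990) and Hamp2 (chr7:30621797-30624106) are 3-exon genes on the minus strand, 17659 bases apart. Their 250 bases upstream of the RefSeq start were 89.7% identical and their coding sequences 93.6% identical. The canonical transcripts differ in annotated length, with 684 bases for Hamp and 437 for Hamp2. End to end they matched in 401 of 691 alignment columns (58.0%), where columns without a Hamp2 base count as mismatches. The gene spans are from GENCODE and reach beyond the RefSeq starts, so these upstream bases lie inside the annotated genes. The 170 bases upstream are given with 2 motifs in capitals: GGCGCC, the core of the BMP-responsive element, and TTCTTGGAA, a match to the STAT site TTCNNNGAA.
Hamp, chr7:30643455-30643624, GRCm39, minus strand: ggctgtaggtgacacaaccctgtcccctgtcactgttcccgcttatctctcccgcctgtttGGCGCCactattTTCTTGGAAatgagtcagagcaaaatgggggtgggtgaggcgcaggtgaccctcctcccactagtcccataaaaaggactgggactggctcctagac
Hamp2, chr7:30623607-30623776, GRCm39, minus strand: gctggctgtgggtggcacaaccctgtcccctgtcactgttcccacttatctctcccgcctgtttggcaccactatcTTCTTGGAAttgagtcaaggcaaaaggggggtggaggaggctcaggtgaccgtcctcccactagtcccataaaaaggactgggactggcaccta
In Hamp the GGCGCC lay 109 to 104 bases and the STAT site 97 to 89 bases before the start. Hamp2 held the STAT site, 94 to 86 bases before its start, and differed from Hamp inside GGCGCC by the substitution G106A, with positions counted upstream from the Hamp start. Both search patterns, GGCGCC and TTCNNNGAA, read the same on either strand and overlap no other motif searched. Of 32851 RefSeq promoter windows of 250 bases, 9.59% held GGCGCC and 7.02% a STAT site. Among the members, 6 of 10 had a window in that table, and GGCGCC also occurred 89 to 84 bases before a Tfrc start.

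Compared per kilobase of exon, with the length taken as the union of all annotated exons, the order of the members by mean level was much the same in each population. Trf stood at 2455 to 2714 CPM per kilobase, Ftl1 at 226 to 294, Fth1 at 115 to 132, Hamp at 69.3 to 104 and Tfr2 at 72.6 to 91.9. The libraries of Hamp and Tfr2 overlapped in every population, so these neighbours could not be ordered. Slc39a14 at 10.6 to 11.5, Slc40a1 at 9.48 to 11.8, Hjv at 8.95 to 9.79 and Tfrc at 5.56 to 7.14 CPM per kilobase formed the lower end. The first 3 of these overlapped in every population, and Tfrc lay below Hjv in every library of the tetraploid populations. Every Ftl1 library lay above every Fth1 library on this scale, which used 1341 bases for Ftl1 and 3520 for Fth1. Their canonical transcripts are close in length, with 920 and 880 distinct stretches of 50 bases, so the order of these chains depends on the length used. Slc40a1 and Slc39a14 were divided by 9424 and 12087 bases, but their canonical transcripts hold 3414 and 5148 such stretches. Their places therefore depend on the length used as well.

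Hamp was well expressed in all 4 populations and varied mostly from mouse to mouse. In mice 1 to 4, its level in 2n-whole was 77.1, 54.2, 83.1 and 32.3 CPM, and in 4n-whole it was 81.4, 46.7, 165 and 42.3 CPM. In 4n-bottom it was 66.5, 51.6, 139 and 46.4 CPM, and in 4n-top it was 60.4, 171 and 46.7 CPM in mice 2 to 4. Mouse 3 was the highest in each population and mouse 4 the lowest, and every pair of populations overlapped. Over the 12 libraries of 2n-whole, 4n-whole and 4n-bottom, the populations that hold all 4 mice, the mouse accounted for 86.1% of the spread in log2 CPM and the population for 3.98%. Within mice, Hamp was higher in 4n-top than in 2n-whole in 3 of 3 animals, by 0.15, 1.04 and 0.53 on the log2 scale.

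The fitted log2 fold change of Hamp was 0.29 (SE 0.13, adjusted p = 0.209) in 4n-whole versus 2n-whole, with 3 of 4 mice higher. It was 0.22 (SE 0.13, adjusted p = 0.600) in 4n-bottom versus 2n-whole and 0.47 (SE 0.15, unadjusted p = 0.00346, adjusted p = 0.146) in 4n-top versus 2n-whole. None of these passed the quasi-likelihood F test of edgeR, whose p-values were adjusted by Benjamini-Hochberg over all genes tested and are the adjusted p-values throughout. All 3 values leaned on mouse 3. Without it the log2 fold change was 0.075 (adjusted p = 0.833) in 4n-whole, 0.075 (adjusted p = 0.966) in 4n-bottom and 0.28 (adjusted p = 0.646) in 4n-top. Without mouse 2 it was 0.46 (adjusted p = 0.0330) in 4n-whole. With the 4n-whole libraries of mice 2 and 4 left out, Hamp passed the test both in 4n-whole versus 2n-whole (0.45, adjusted p = 0.0383) and in 4n-top versus 2n-whole (0.45, adjusted p = 0.00589). The difference between 4n-top and 4n-bottom was 0.25 (95% interval -0.048 to 0.55), with 3 of 3 mice higher in 4n-top and an unadjusted p of 0.0967.

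**Figure D1:**
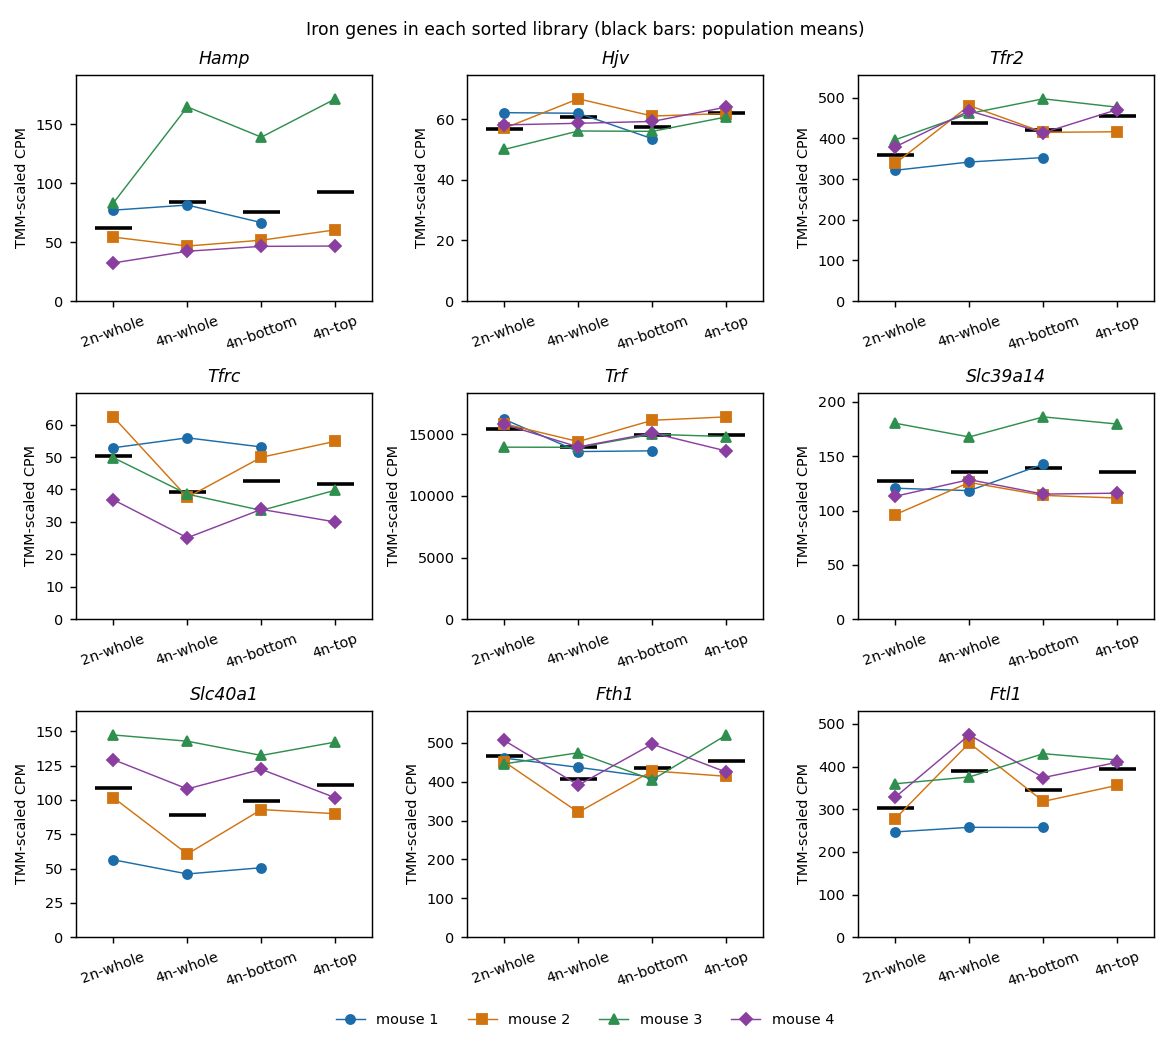
Level of the 9 tested iron genes in each library, in TMM-scaled CPM on a linear axis from 0, for the 4 sorted populations; each symbol and line is 1 mouse and black bars are population means. Mouse 3 lies highest for Hamp and Slc39a14 in every population, with Hamp reaching 171 CPM in 4n-top, while Ftl1 of mice 2 and 4 peaks in 4n-whole at 455 and 474 CPM.

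Hamp2 was almost silent. It had 1 count in 2n-whole, from mouse 1, and 2 counts in 4n-bottom, from mouse 3, and 0 counts in the other 13 libraries. None of the libraries reached the floor of 3 counts. Of the stretches of 50 bases in the Hamp2 transcript, 60.6% occur in no other annotated transcript, against 86.0% for Hamp, so reads of Hamp2 could be told apart over most of its length. The annotated Gm44662 overlaps both genes and shares 33.8% of the Hamp2 stretches and 10.5% of the Hamp stretches.

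Hjv (chr3:96432424-96439496, plus strand), the BMP co-receptor also called hemojuvelin, was the steadiest of the sensing genes. Its population means ran from 56.8 ± 5.04 CPM (SD, n = 4) in 2n-whole to 62.2 ± 1.66 CPM (SD, n = 3) in 4n-top. All 15 libraries lay between 49.98 and 66.7 CPM. The log2 fold change was 0.099 (SE 0.095, adjusted p = 0.628) in 4n-whole versus 2n-whole, where the 95% interval ran from -0.096 to 0.29, and 0.12 (95% interval -0.093 to 0.34) in 4n-top versus 4n-bottom.

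Tfr2 (chr5:137568087-137586343, plus strand), a transferrin receptor that senses iron rather than importing it, was higher in 4n-whole than in 2n-whole in 4 of 4 mice. Its level in mice 1 to 4 was 322, 339, 397 and 379 CPM in 2n-whole and 342, 481, 462 and 468 CPM in 4n-whole. In 4n-bottom it was 353, 415, 498 and 414 CPM, and in 4n-top it was 417, 477 and 471 CPM in mice 2 to 4. Mouse 1 was the lowest animal in every population it entered, and all 3 libraries of 4n-top lay above all 4 of 2n-whole. That was the only pair of populations without overlap among the 9 tested members over all 4 comparisons, and 9.21% of all genes tested were free of overlap between 4n-top and 2n-whole. In the other comparisons 0 of 9 members were free of overlap, beside 5.8% of all genes in 4n-whole versus 2n-whole, 3.52% in 4n-bottom versus 2n-whole and 3.15% in 4n-top versus 4n-bottom.

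Tfr2 passed the test in 4n-whole versus 2n-whole, with a log2 fold change of 0.28 (SE 0.084, adjusted p = 0.0471), which is 1.21-fold. The log2 fold change was 0.22 (adjusted p = 0.344) in 4n-bottom and 0.26 (adjusted p = 0.233) in 4n-top against the same 2n-whole libraries, so these 3 values share their controls. The call was close to the threshold, and of 11 alternatives it was kept in 4 and lost in 7. Without mouse 2 the log2 fold change was 0.20 (adjusted p = 0.358) and without mouse 4 it was 0.27 (adjusted p = 0.308). Without the 4n-whole libraries of mice 2 and 4 it was 0.16 (adjusted p = 0.651). Between 4n-top and 4n-bottom the difference was 0.041 (95% interval -0.15 to 0.23).

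Tfrc (chr16:32427556-32451612, plus strand), the transferrin receptor that imports iron-loaded transferrin, was expressed far below Tfr2 in these cells. Per kilobase of exon, Tfrc stood at a mean of 5.56 to 7.14 CPM and Tfr2 at 72.6 to 91.9 CPM. In mice 1 to 4 the level of Tfrc was 52.8, 62.4, 49.8 and 36.8 CPM in 2n-whole and 55.9, 37.6, 38.6 and 25.1 CPM in 4n-whole. In mouse 1 the populations hardly differed, whereas the other 3 mice were lower in 4n-whole. The fitted log2 fold change was -0.38 (SE 0.12, adjusted p = 0.0588). It missed the threshold in the main fit but passed it with DESeq2's size factors in edgeR (-0.40, adjusted p = 0.0473), and without the 4n-whole libraries of mice 2 and 4 it was -0.15 (adjusted p = 0.778).

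The other tetraploid populations gave smaller values for Tfrc. In 4n-bottom its level was 53.1, 49.9, 33.5 and 33.9 CPM in mice 1 to 4, with a log2 fold change of -0.25 against 2n-whole (adjusted p = 0.479). In 4n-top it was 54.9, 39.8 and 30.0 CPM in mice 2 to 4, lower than in 2n-whole in 3 of 3 mice, with a log2 fold change of -0.19 (adjusted p = 0.642). The difference between 4n-top and 4n-bottom was 0.062 (95% interval -0.21 to 0.34).

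Trf (chr9:103081200-103107814, minus strand), which encodes plasma transferrin, was the most abundant member by far. Its population means ran from 13976 ± 332 CPM (SD, n = 4) in 4n-whole to 15449 ± 1017 CPM (SD, n = 4) in 2n-whole. Mouse 1 stood at 16209 CPM in 2n-whole and 13592 CPM in 4n-whole, and mouse 3 at 13949 and 13938 CPM. The log2 fold change was -0.14 (SE 0.069, adjusted p = 0.235), and in 4n-top versus 4n-bottom it was -0.013 (95% interval -0.17 to 0.14).

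Slc39a14 (chr14:70540678-70588914, minus strand), which encodes ZIP14, the importer of iron not bound to transferrin, varied more between mice than between populations. Mouse 3 was highest in all 4 populations, at 180.4 CPM in 2n-whole, 168 in 4n-whole, 186 in 4n-bottom and 179.6 CPM in 4n-top. The other libraries lay between 96.3 and 143 CPM. Over the 12 libraries without 4n-top, the mouse accounted for 84.3% of the spread and the population for 4.45%. The fitted log2 fold changes lay between -0.064 and 0.14 in the 4 comparisons, and the lowest adjusted p was 0.558.

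Slc40a1 (chr1:45947211-45965683, minus strand), which encodes ferroportin, was lower in 4n-whole than in 2n-whole in 4 of 4 mice without passing the test. Its level in mice 1 to 4 was 56.4, 102, 147 and 129 CPM in 2n-whole and 46.1, 60.6, 143 and 108 CPM in 4n-whole. The mice kept a wide order, with mouse 1 lowest and mouse 3 highest, and the mouse accounted for 90.3% of the spread over the 12 libraries without 4n-top, the largest share among the 9 tested members. The fitted log2 fold change was -0.32 (SE 0.11, adjusted p = 0.0679). It was -0.20 (adjusted p = 0.416) without mouse 2 and -0.18 (adjusted p = 0.648) without the 4n-whole libraries of mice 2 and 4, and it passed the test without mouse 3 (-0.42, adjusted p = 0.0233). Within mice the log2 difference ran from -0.75 in mouse 2 to -0.045 in mouse 3.

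The other tetraploid populations also lay below 2n-whole for Slc40a1 in every mouse. In 4n-bottom the level was 50.6, 93.0, 132 and 122 CPM, with a log2 fold change of -0.13 (adjusted p = 0.729). In 4n-top it was 89.9, 142 and 102 CPM in mice 2 to 4, with a log2 fold change of -0.19 (adjusted p = 0.575). Ferroportin is abundant in Kupffer cells, and their markers were low in every library: the sum of 8 markers was 0.764 to 8.33 CPM in 2n-whole, 1.08 to 2.97 in 4n-whole, 0.249 to 3.77 in 4n-bottom and 0.547 to 1.55 in 4n-top. Vsig4 had 0 counts in every 4n-whole library, 0 of the 7 tested markers passed edgeR's test in any comparison and 2, 1 and 4 had an unadjusted p below 0.05 in 4n-whole, 4n-bottom and 4n-top versus 2n-whole. Their part in the Slc40a1 values was not tested.

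Fth1 (chr19:9957911-9962462, plus strand) and Ftl1 (chr7:45107367-45109308, minus strand) encode the heavy and light chains of ferritin, the shell in which cells store iron, and the light chain alone passed the test between 2n-whole and 4n-whole. The level of Ftl1 in mice 1 to 4 was 247, 278, 359.6 and 328 CPM in 2n-whole and 258, 455, 375 and 474 CPM in 4n-whole. All 4 mice were higher in 4n-whole, but mice 1 and 3 by 0.062 each and mice 2 and 4 by 0.71 and 0.53 on the log2 scale. Ftl1 passed the test at a log2 fold change of 0.35 (SE 0.10, adjusted p = 0.0363), or 1.28-fold. Of 11 alternatives, the call was kept in 6 and lost in 5. Among the losses were those without mouse 2 (0.22, adjusted p = 0.331) and without mouse 4 (0.28, adjusted p = 0.336). Without the 4n-whole libraries of mice 2 and 4 it was 0.083 (adjusted p = 0.869).

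Against 2n-whole, Ftl1 was also higher in every mouse of the other tetraploid populations, without passing the test. In 4n-bottom its level was 257, 318, 430.1 and 374 CPM, with a log2 fold change of 0.18 (adjusted p = 0.568). In 4n-top it was 356, 415 and 410.0 CPM in mice 2 to 4, with a log2 fold change of 0.25 (adjusted p = 0.386). The Ftl1 count is uncertain, because 90.5% of its 50-base stretches occur in other annotated transcripts, 73.4% in Ftl1-ps1 alone. Ftl1-ps1 itself had 2 counts over all libraries. For Fth1 the share was 39.4%. Tfrc, Trf, Slc40a1, Fth1 and Ftl1 each overlap at least 1 other annotated gene, and since the strand setting of the counting is not given, reads of such neighbours cannot be told apart.

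The level of Fth1 was 461, 451, 446 and 506 CPM in 2n-whole and 437, 321, 475 and 391 CPM in 4n-whole in mice 1 to 4. Mice 2 and 4 were again the ones that differed most. The log2 fold change was -0.21 (SE 0.10, adjusted p = 0.234). It was -0.12 without mouse 2 and -0.024 (adjusted p = 0.978) without the 4n-whole libraries of mice 2 and 4. In 4n-bottom Fth1 stood at 412, 428, 405 and 497 CPM and in 4n-top at 414, 520.4 and 425 CPM, with log2 fold changes of -0.098 (adjusted p = 0.794) and -0.044 (adjusted p = 0.930) against 2n-whole.

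The ratio of Fth1 to Ftl1 counts within a library needs no scaling of library sizes. In mice 1 to 4 it was 1.87, 1.63, 1.24 and 1.54 in 2n-whole and 1.70, 0.706, 1.26 and 0.826 in 4n-whole. In 4n-bottom it was 1.60, 1.34, 0.942 and 1.33, and in 4n-top it was 1.16, 1.25 and 1.04 in mice 2 to 4. Ftl1 counts therefore exceeded Fth1 counts in 3 of the 15 libraries, counted per gene and not per length. Which chain is more abundant cannot be read from this. Of the 50-base stretches, 90.5% in Ftl1 and 39.4% in Fth1 occur in other transcripts, and the handling of multi-mapping reads is not given. The mean log2 ratio was lower by 0.55 in 4n-whole than in 2n-whole, but the two-sided exact permutation test over libraries gave p = 0.200 (adjusted p = 0.343 over 4 comparisons). The lowest p of the 4 was 0.0857, in 4n-top versus 2n-whole, and the smallest that these group sizes allow is 0.0286. The permutation over libraries does not use the pairing by mouse. Paired, the exact sign-flip test gave p = 0.25 in 4n-whole and p = 0.5 in 4n-top versus 2n-whole, where the smallest possible are 0.125 and 0.25. In 4n-bottom the ratio was lower than in 2n-whole in 4 of 4 mice (exact sign-flip p = 0.125, the smallest possible).

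**Figure D2:**
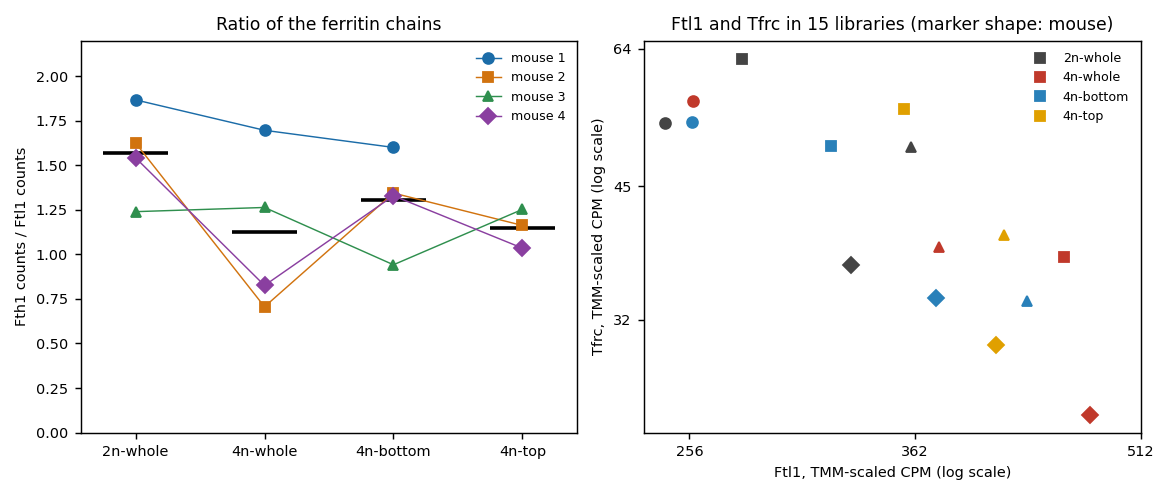
Left, the ratio of Fth1 to Ftl1 counts in each library on a linear axis from 0, with 1 line per mouse and black bars for population means; right, Tfrc against Ftl1 in the 15 libraries, both in TMM-scaled CPM on log axes. The ratio falls below 1 in the 4n-whole libraries of mice 2 and 4 (0.706 and 0.826) and in the 4n-bottom library of mouse 3 (0.942), and libraries with more Ftl1 have less Tfrc.

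Counted together, 2 of the 9 tested members passed the test in 4n-whole versus 2n-whole, Tfr2 and Ftl1, both higher. Over all genes the share was 5.47% in either direction, 2.93% higher and 2.54% lower. An unadjusted p below 0.05 was reached by 7 of the 9, all but Hjv and Slc39a14, beside 20.4% of all genes. Neither passed the study's further limit of 0.5 on the absolute log2 fold change, which 3.47% of all genes passed along with the test. The median log2 fold change of the members was 0.099, beside -0.0070 over all genes tested. In DESeq2 with the mouse in the model 4 members were called, Tfr2, Ftl1, Tfrc and Slc40a1, beside 8.18% of all genes. After the study's own order of steps, ComBat-seq followed by DESeq2, 5 were called: Tfr2 and Ftl1 higher and Tfrc, Trf and Slc40a1 lower, beside 12.5% of all genes. With only the libraries compared 0 were called, beside 2.17% of all genes, and without the mouse in the model 0, beside 0.229%.

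In 4n-top versus 4n-bottom 0 of 9 members passed edgeR's test, beside 0.0114% of all genes, and 0 had an unadjusted p below 0.05, beside 2.79% of all genes. DESeq2 and ComBat-seq followed by DESeq2 also called 0. In 4n-bottom versus 2n-whole 0 of 9 passed, beside 0.492% of all genes, and 2 had an unadjusted p below 0.05, Tfr2 and Tfrc, beside 10.2% of all genes, with 0 called by DESeq2 or by ComBat-seq followed by DESeq2. In 4n-top versus 2n-whole 0 of 9 passed, beside 1.06% of all genes, and 3 had an unadjusted p below 0.05, Hamp, Tfr2 and Ftl1, beside 11.3% of all genes. DESeq2 called 0 of them, and ComBat-seq followed by DESeq2 called Hamp and Tfr2, beside 4.61% of all genes.

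**Figure D3:**
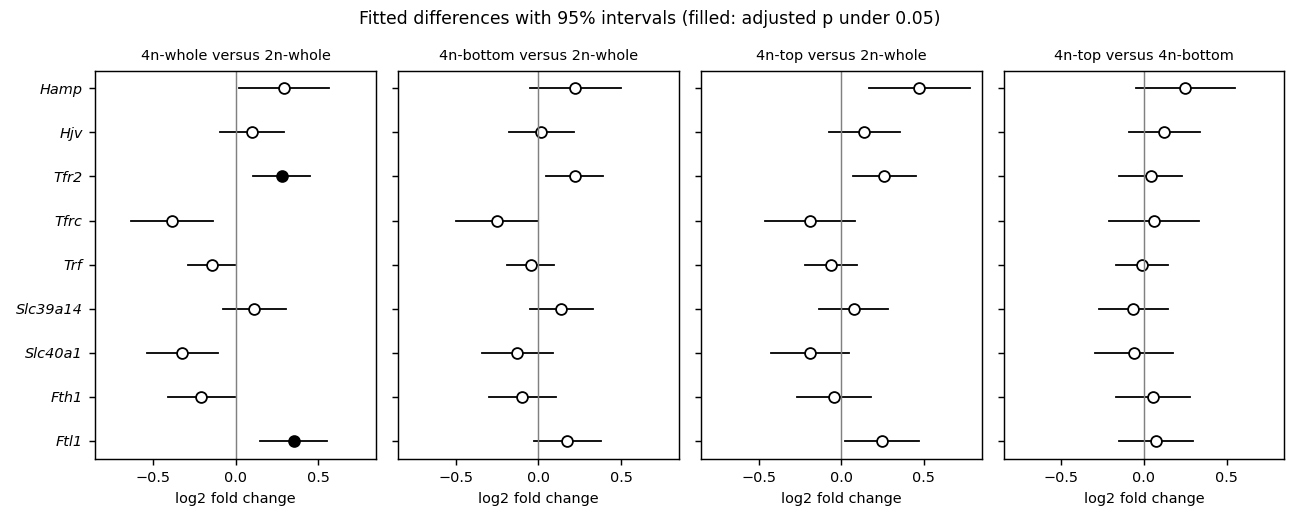
Fitted log2 fold change of the 9 tested members in the 4 comparisons, with 95% intervals; filled points passed an adjusted p of 0.05. The 2 filled points are Tfr2 (0.28) and Ftl1 (0.35) in 4n-whole versus 2n-whole, and all 9 intervals cross 0 in 4n-top versus 4n-bottom.

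Some members kept step with each other across libraries. With the mean of each mouse removed, the correlation of log2 CPM over 15 libraries was 0.90 for Tfr2 with Ftl1, -0.89 for Tfrc with Ftl1 and -0.90 for Tfr2 with Tfrc. Before the mouse means were removed these were 0.95, -0.81 and -0.75. Other pairs changed sign with that removal. Slc40a1 with Ftl1 was -0.87 after it and 0.58 before, Tfr2 with Slc40a1 -0.81 and 0.53, and Tfrc with Slc40a1 0.77 and -0.44. The correlation of Hamp with Tfr2 was 0.38 with the mouse means removed and 0.23 before, and with Hjv it was 0.60 and -0.28. These values are descriptions, since libraries share mice and scaling, and the 4n-whole libraries of mice 2 and 4 hold the highest Ftl1 levels of all 15.

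The genes whose level followed Hamp most closely after removal of the mouse means were Smu1 (0.96), Itm2b (0.95), Tmem59 (0.95), Ces1f (0.94) and Nono (0.93). Before that removal their correlations with Hamp lay between -0.35 and 0.33. Of all tested genes, 18.3% had a correlation with Hamp above 0.5 in size.

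Beyond the members, 66 of 70 genes in 6 lists of iron biology were tested, and 8 passed in 4n-whole versus 2n-whole, 2 higher and 6 lower, or 12.1% of the lists beside 5.47% of all genes. The median log2 fold change of the lists was -0.061. Steap2, a reductase of ferric iron, had the smallest p. Its level ran from 7.48 to 13.7 CPM in 2n-whole and from 3.81 to 5.76 CPM in 4n-whole, and the groups did not overlap. The log2 fold change was -1.19 (SE 0.20, adjusted p = 0.000355), lower in 4 of 4 mice, and Steap2 was the 1 iron gene to pass also in 4n-bottom (-0.83, adjusted p = 0.0433) and in 4n-top (-1.09, adjusted p = 0.00517) versus 2n-whole. It also passed with the 4n-whole libraries of mice 2 and 4 left out, at -0.999 (adjusted p = 0.0109) in 4n-whole versus 2n-whole. Of 11 alternatives, the Steap2 call was lost in 1 for 4n-whole, 4 for 4n-bottom and 3 for 4n-top versus 2n-whole. Its 4n-bottom libraries overlapped those of 2n-whole.

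With Steap2, 3 of the 11 tested genes of transport and reductases passed in 4n-whole versus 2n-whole, all lower. The other 8 did not pass, and 3 of them had values above 0, Slc11a2 at 0.16, Slc25a37 at 0.12 and Slc25a28 at 0.25. Cp, the plasma ferroxidase ceruloplasmin, stood at 1202 to 1315 CPM in 2n-whole and 708 to 1066 CPM in 4n-whole, and its log2 fold change was -0.48 (adjusted p = 0.00389). Slc39a8, the importer ZIP8, fell by 0.50 on the log2 scale (adjusted p = 0.0299). Both calls were lost with the 4n-whole libraries of mice 2 and 4 left out, at -0.24 (adjusted p = 0.278) for Cp and -0.23 (adjusted p = 0.666) for Slc39a8. In that fit 1.57% of all genes were called.

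In the list of plasma iron and heme binding, 2 of 7 genes passed, both lower. Ambp, the precursor of the heme scavenger alpha-1-microglobulin, changed by -0.34 (adjusted p = 0.0249), from 1542 to 1794 CPM in 2n-whole to 1211 to 1507 CPM in 4n-whole. Lcn2, which binds iron-carrying siderophores and is made by neutrophils as well as hepatocytes, changed by -1.49 (adjusted p = 0.0388) at a low level, 0.887 to 6.05 CPM in 2n-whole. Of the genes of the iron regulatory proteins and ferritin turnover, 1 of 7 passed: Ncoa4, the receptor that delivers ferritin to lysosomes, with -0.39 (adjusted p = 0.0278). None of these 3 kept its call without the 4n-whole libraries of mice 2 and 4, where the values were -0.17, -1.24 and -0.27 (adjusted p = 0.582, 0.335 and 0.416).

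On the side of hepcidin induction, 0 of 18 genes of the BMP-SMAD branch passed edgeR's test in any comparison, and 4 in 4n-whole and 2 in 4n-top versus 2n-whole had an unadjusted p below 0.05, beside 20.4% and 11.3% of all genes. Bmpr1a, a BMP receptor, gave -0.35 (adjusted p = 0.0662) in 4n-whole versus 2n-whole and Tmprss6, the protease that trims HJV, gave 0.23 (adjusted p = 0.105), with DESeq2 calling 2 of the 18, beside 8.18% of all genes, and ComBat-seq followed by DESeq2 calling 3, beside 12.5%. In the IL-6-STAT3 branch 1 of 8 passed: Socs3, the feedback inhibitor of STAT3, was higher by 0.37 (adjusted p = 0.0349), in 4 of 4 mice. Among 15 tested genes of iron-sulfur cluster assembly 1 passed, the electron donor Fdx1, with 48.2 to 63.5 CPM in 2n-whole, 65.0 to 84.8 CPM in 4n-whole and a log2 fold change of 0.41 (adjusted p = 0.0174). Socs3 and Fdx1 were at 0.22 and 0.32 (adjusted p = 0.603 and 0.256) without those 2 libraries.

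**Figure D4:**
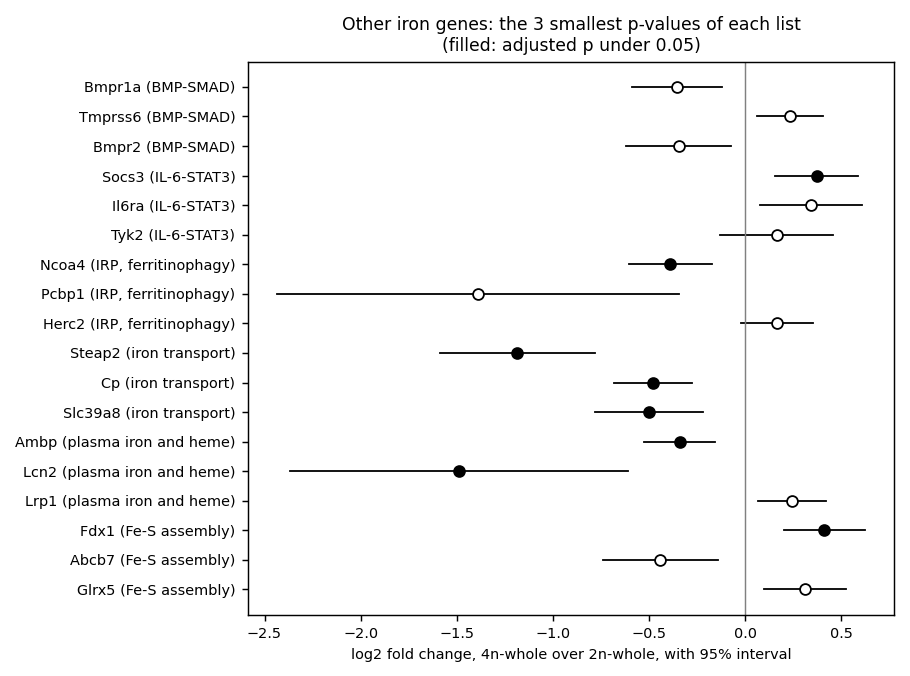
Fitted log2 fold change in 4n-whole over 2n-whole, with 95% intervals, for the 3 genes with the smallest p of each of the 6 iron lists; filled points passed an adjusted p of 0.05. Of the 8 filled points, 6 lie below 0, with Lcn2 (-1.49) and Steap2 (-1.19) furthest out, and Socs3 (0.37) and Fdx1 (0.41) above.

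Transcripts that mark lobular position differed with ploidy in the same libraries, whereas position itself was not measured. Of 12 pericentral genes, such as Glul and Cyp2e1, all 12 had a higher fitted level in 4n-whole than in 2n-whole and 11 passed the test, and their summed level was 519 to 876 CPM in 2n-whole, 913 to 3104 in 4n-whole, 889 to 2210 in 4n-bottom and 878 to 3325 in 4n-top. All 10 periportal genes had a lower fitted level in 4n-whole and 5 passed the test. Bile duct markers were lower too: 2 of 4 tested were called, and the sum of 5 was 34.6 to 47.4 CPM in 2n-whole and 16.404 to 31.2 CPM in 4n-whole. Sox9 made up most of that sum, with means of 30.8 CPM in 2n-whole and 20.4 CPM in 4n-whole. In 2n-whole Spp1 had a mean of 9.61 CPM, and Krt19, Krt7 and Epcam had 0.717, 0.265 and 0.413 CPM. The part of lobular position and of other cell types in the values of Tfr2, Ftl1 and the other iron genes was not tested.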

How the data were processed

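Reads came from RNA of sorted hepatocytes, prepared with a stranded kit. The authors mapped them to GRCm39 with STAR (2.7.11a per the labels) and deposited raw featureCounts counts per gene symbol. The annotation, the strand setting and the handling of read pairs and multi-mapping reads are not given in the sources used here.

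The deposited counts were tested with edgeR 4.0.16 in R 4.3.3: TMM normalization, filterByExpr (minimum count 10, minimum total 15), all 15 libraries, population as factor and mouse as replicate block, quasi-likelihood F test, Benjamini-Hochberg adjustment over 17488 genes, threshold 0.05. Mouse numbers come from the subject number in the labels. Residuals of libraries from the same mouse correlated at 0.158 on average (0.0845 to 0.227), above 0.1 in 20 of 21 pairs. Libraries of the same number come from the same animal, and the 4 mice are the replicates. Correlations used log2 CPM with a prior count of 2. On counts simulated for 4n-whole versus 2n-whole over 17488 genes, 185 of 200 genes changed 2-fold were recovered with 10 false calls. The changed genes were drawn only from those with higher mean counts. Smaller changes, such as those of the called members, were not simulated, so their recovery is not known.

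The members and the lists were chosen with earlier results of these data known. Genes named beyond the 10 members are up to 3 per iron list and comparison with the smallest p, and the 5 most correlated with Hamp. Transcript overlap and hairpins were read from GRCm39 with GENCODE M39. Promoter letters are from RefSeq (GRCm38 table), placed on GRCm39 by exact match. The alternatives were no block, DESeq2 1.42.0, ComBat-seq (sva 3.50.0) then DESeq2, DESeq2 size factors, no filter, the compared libraries alone, a fold limit of 0.5 and leaving out each mouse. Leaving out the 4n-whole libraries of mice 2 and 4 was added after the data were seen. It leaves 4n-whole with mice 1 and 3 only. In 4n-whole versus 2n-whole 1.57% of all genes were then called, beside 5.47% in the main fit. Which calls were lost through fewer libraries was not tested.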

Additional observations from a re-analysis of the deposited data

Results flagged for a closer look

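Tfr2 in the 4n-whole library of mouse 1, at 342 CPM, lay far below the other 3 libraries of its population, which were at 462 to 481 CPM. It was the only value set apart in this way among 30 groups of 4 libraries tested, where chance flags about 1 in 20 groups. Mouse 1 had the lowest Tfr2 in 2n-whole and 4n-bottom too, at 322 and 353 CPM.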

How the results depend on the processing

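The 2 calls among the members in 4n-whole versus 2n-whole became 0 without the replicate block, 0 with only the libraries compared and 0 with the fold limit of 0.5, and 4 with DESeq2, 5 with ComBat-seq then DESeq2 and 1, Hamp, with the 4n-whole libraries of mice 2 and 4 left out. Leaving out 1 mouse gave 0 to 3 calls. They were 3 without mouse 1 (Tfr2, Tfrc and Ftl1), beside 6.32% of all genes, and 1 without mouse 2 (Hamp), beside 2.57%. They were 2 without mouse 3 (Ftl1 and Slc40a1), beside 7.57%, and 0 without mouse 4, beside 1.37%. The causes were not tested, and some of these settings hold fewer libraries. DESeq2 size factors in edgeR also gave 2 calls, but Tfrc replaced Tfr2 (adjusted p = 0.0541). In 4n-top versus 2n-whole the count of 0 became 2 with ComBat-seq then DESeq2 (Hamp and Tfr2), beside 4.61% of all genes. It became 1, Hamp, with no filter (0.827% of all genes) and with only the libraries compared (3.01%). Hamp was also the 1 call with the 4n-whole libraries of mice 2 and 4 left out (3.14%) and without mouse 2 (1.36%). The range over left-out mice was 0 to 1. The other comparisons gave 0 calls under each setting. Over all genes, the 957 calls in 4n-whole versus 2n-whole became 40 without the replicate block, 1431 with DESeq2, 2430 with ComBat-seq then DESeq2, 322 with only the libraries compared and 297 with the 2 libraries left out.

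Of 396 member values under an alternative, 354 kept direction and side of the threshold, 12 lost a call, 16 gained one and 14 changed sign, all 14 between uncalled values. With those 2 libraries left out, Slc39a14 in 4n-whole versus 2n-whole was -0.063, and of the other genes Tyk2 was -0.027. Without the block, Tfrc was -0.036 and Slc40a1 0.16 in 4n-top versus 4n-bottom, and Slc40a1 was 0.033 in 4n-top versus 2n-whole. Hjv in 4n-bottom versus 2n-whole was -0.00360 with DESeq2 and -0.00334 with its size factors in edgeR. The values that crossed 0 when 1 mouse was left out ran from -0.022 to 0.078 for Tfr2, -0.045 to 0.049 for Trf, -0.12 to 0.034 for Slc40a1 and -0.074 to 0.17 for Fth1 in 4n-top versus 4n-bottom, from -0.029 to 0.091 for Hjv and -0.096 to 0.015 for Trf in 4n-bottom versus 2n-whole, and from -0.16 to 0.041 for Fth1 in 4n-top versus 2n-whole.

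The Fth1 to Ftl1 difference in log2 ratio kept its sign when paired by mouse as a block (-0.55 in 4n-whole and -0.28 in 4n-bottom versus 2n-whole, -0.35 in 4n-top versus 2n-whole and -0.053 in 4n-top versus 4n-bottom), where 4 or 3 pairs allow no exact p below 0.125 or 0.25, so the threshold could not be reached. With 1 mouse left out it ran from -0.75 to -0.34, -0.30 to -0.24, -0.61 to -0.35 and -0.37 to -0.053 in the same order. The ratio of Hamp2 to Hamp was not run, since Hamp2 had 0 counts in most libraries. Hamp2 was the 1 member under the floor of 3 counts in every library.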
